A study of Mus musculus with 3 samples.

Results

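Mecom, Prdm16, Hlf, Meis1, Mllt3 and Etv6, 6 genes for transcription factors and a chromatin reader that keep haematopoietic stem cells (HSCs) self-renewing, were examined for summits of H3K9ac, out of 21887 protein-coding genes. The genes were chosen by name. A gene's window was its mm10 record in RefSeq and 50 kb beyond each end, and every summit in a window was a member: 57 of 45386 summits in the library labelled old ABC, 169 of 108787 in the library labelled old and 38 of 33248 in the library labelled young. All libraries came from bone marrow HSCs of wild-type mice: the old HSC ABC and old HSC libraries from mice of 18 to 24 months, and the young HSC library from mice of 2 to 4 months, with 50000 sorted cells per assay. The labels do not spell out ABC, name no strain and give no markers for the sort. CUT&Tag was used, in which an antibody, here against H3K9ac, brings a transposase to the mark, which cuts and tags the DNA beside it.

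There was 1 library per group, so differences between libraries have no replicate check and are given without tests. Intervals below are exact 95% Clopper-Pearson intervals and cover counting error only. Peak names in the files carry a sample name of their own, and it goes against the labels. That name was oHSC-H3K9ac-2 for old ABC, oHSC-ABC-H3K9ac-1 for old and oHSC-H3K9ac-1 for young, as the lists are labelled. Each value below belongs to a library as labelled, and which name is right cannot be told apart from these files. Fewer cells with the mark and less of the mark per cell cannot be told apart in such bulk lists either. Among 12 genes known as HSC markers or used beside them, 6, 10 and 8 had a summit within 1 kb of a record end in the old ABC-, old- and young-labelled lists, and among 8 neutrophil genes 5, 8 and 5 did (43.6%, 56.9% and 41.9% of all protein-coding genes). Of the 12, Kit, Slamf1, Cd48, Esam, Fgd5 and Hoxb5 had no such summit in the old ABC-labelled list. Cd48 and Hoxb5 had none in the old-labelled list, and Slamf1, Flt3, Esam and Fgd5 none in the young-labelled list. Since the 12 include genes only used beside HSC markers, their counts name no cell type. The counts were 2, 4 and 2 of 5 for T and NK cell genes, 2, 2 and 1 of 5 for erythroid genes and 2, 3 and 1 of 4 for megakaryocyte genes. Of the genes that define them, Ms4a1 (B cells), Cd8a (T cells), Hba-a1, Hbb-bs and Alas2 (erythroid) and Ppbp (platelets) had no end summit in any list, while S100a8, S100a9, Ngp and Mpo (neutrophils and their precursors) and Cd79b (B cells) had one in every list. Summed over their windows, the 12 genes of the first list held 67, 157 and 58 summits and the 8 neutrophil genes 50, 87 and 42. The T and NK cell genes held 25, 48 and 17, the erythroid genes 13, 34 and 8 and the megakaryocyte genes 22, 39 and 12. A single window held a median of 5, 11 and 4 summits over all protein-coding genes. The part of cells other than HSCs in the results below was not tested.

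H3K9ac is laid down by acetyltransferases at active promoters and enhancers and is removed by deacetylases. Long-lived HSCs keep dividing slowly without losing their identity, and these genes are among those known to hold them there. Mecom and Prdm16 encode related zinc finger proteins of the PR domain family. Mecom is transcribed from an upstream start, which gives the long form MDS1-EVI1, and from an inner start, which gives the short form EVI1 that lacks the PR domain. Hlf encodes a bZIP factor that marks HSCs, and Meis1 a homeodomain partner of HOX and PBX proteins. Mllt3 encodes AF9, whose YEATS domain itself binds acetylated lysines of histone H3, H3K9ac among them. Etv6 encodes an ETS family repressor needed by adult marrow HSCs.

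The sequences upstream of the starts are shown because H3K9ac summits are read here against them. The RefSeq promoter table (GRCm38.p6, the coordinates of mm10) held all 6 genes, with a pair of starts each for Mecom and Mllt3. For Meis1 the 250 bases before the start (chr11:19018970-19019219, minus strand) held a summit of each of the 3 libraries. The capitals mark the 32 bases from the first to the last of these summits.
Meis1: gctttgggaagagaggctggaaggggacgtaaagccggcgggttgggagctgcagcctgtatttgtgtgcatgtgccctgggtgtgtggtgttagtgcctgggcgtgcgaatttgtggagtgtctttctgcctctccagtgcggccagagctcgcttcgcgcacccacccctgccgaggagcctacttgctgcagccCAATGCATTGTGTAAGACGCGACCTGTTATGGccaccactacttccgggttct
The 250 bases before the starts of Mecom, Prdm16 and Hlf held no summit in any library and are shown for contrast. They are those of Mecom at the upstream start (chr3:30509760-30510009, minus strand) and at the inner start (chr3:30013205-30013454, minus strand), of its relative Prdm16 (chr4:154636874-154637123, minus strand) and of Hlf (chr11:90390918-90391167, minus strand). Capitals here mark matches, on either strand, to TGACAG (known for MEIS proteins), CCGGAA (ETS proteins) and GGGCGG (the GC box).
Mecom upstream: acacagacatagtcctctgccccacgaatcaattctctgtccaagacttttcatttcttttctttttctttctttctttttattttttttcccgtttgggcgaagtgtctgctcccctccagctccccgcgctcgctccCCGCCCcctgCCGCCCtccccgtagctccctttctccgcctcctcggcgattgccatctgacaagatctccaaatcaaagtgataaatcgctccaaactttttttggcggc
Mecom inner: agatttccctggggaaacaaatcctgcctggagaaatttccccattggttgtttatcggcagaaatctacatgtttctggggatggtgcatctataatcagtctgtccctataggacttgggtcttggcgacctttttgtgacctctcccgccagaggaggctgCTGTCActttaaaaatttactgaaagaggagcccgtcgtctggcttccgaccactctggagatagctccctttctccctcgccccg
Prdm16: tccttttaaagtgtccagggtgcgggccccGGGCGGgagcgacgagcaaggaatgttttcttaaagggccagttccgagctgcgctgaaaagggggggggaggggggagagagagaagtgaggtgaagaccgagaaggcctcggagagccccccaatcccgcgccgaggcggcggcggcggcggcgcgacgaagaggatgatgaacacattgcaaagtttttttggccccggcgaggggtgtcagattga
Hlf: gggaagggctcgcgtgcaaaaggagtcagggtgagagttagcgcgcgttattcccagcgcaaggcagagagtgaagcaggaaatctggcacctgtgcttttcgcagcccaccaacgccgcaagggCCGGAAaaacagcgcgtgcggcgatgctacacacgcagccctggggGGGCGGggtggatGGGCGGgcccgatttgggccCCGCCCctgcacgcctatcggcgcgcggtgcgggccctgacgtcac
GGGCGG was present before the starts of Mecom (upstream, 2 matches), Prdm16 (1), Hlf (3), Mllt3 (outer, 2, which overlap) and Etv6 (1), and in 32.7% of the 32851 promoters of the table. TGACAG was present once before the inner starts of Mecom and Mllt3, and in 15.9% of all promoters. CCGGAA was present once before the starts of Hlf and Meis1, and in 12.0%. AGATAA, known for GATA factors, was in none of the 8 sequences and in 9.99% of all promoters. TGACTCA, known for AP-1, was in none and in 4.46%. TTACGTAA, known for HLF and its relatives, was in none and in 0.113%. Only these exact strings were sought, so other forms of a motif were not counted. CpG dinucleotides numbered 14 and 8 before the upstream and inner starts of Mecom, 22 for Prdm16, 26 for Hlf, 13 for Meis1, 23 and 4 for the outer and inner starts of Mllt3 and 16 for Etv6, against a median of 6 over the table. Mecom (upstream) and Prdm16 shared a run of 24 bases, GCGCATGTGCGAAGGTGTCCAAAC, just downstream of their starts (chr3:30509710-30509733 and chr4:154636841-154636864). No promoter of another gene in the table held it, and the Mecom copy reached the last base of its sequence there. The next longest run shared by 2 of the sequences was 15 bases, between the upstream and inner starts of Mecom.

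The windows covered 2.17 Mb. They held 26.3 summits per Mb in the old ABC-labelled list, 77.8 in the old-labelled list and 17.5 in the young-labelled list, which was 1.58, 1.95 and 1.43 times the density of each list over the genome. As a share of the list, window summits came to 0.126% (0.0951 to 0.163) for the old ABC-labelled list, 0.155% (0.133 to 0.181) for the old-labelled and 0.114% (0.0809 to 0.157) for the young-labelled, so the 3 intervals overlapped. Most window summits lay inside the records: 46 of 57, 139 of 169 and 31 of 38. Records ran from 54.4 kb for Hlf to 558 kb for Mecom. Whether a summit lay in an exon, an intron or a UTR was not analysed here. The window of a typical gene held 3.69, 8.82 and 2.68 summits per 100 kb (medians over all protein-coding genes in the old ABC-, old- and young-labelled lists). The medians of the 6 genes were 2.17, 7.24 and 1.89, each below that of all genes. Single genes lay above it: Prdm16 with 4.75 and 13.1 summits per 100 kb in the old ABC- and old-labelled lists (percentiles 61.9 and 77.5 of all genes), Etv6 with 12.3 in the old-labelled list (percentile 72.1) and Meis1 with 3.34 in the young-labelled list (percentile 58.8). In equal-length lists, the 33248 highest-scoring summits of each library, Prdm16 stood at percentiles 52.9 and 49.6 in the old ABC- and old-labelled lists. Meis1 then stood at 59.2 and 69.6 in these lists, against 46.4 and 34.2 as deposited, and Etv6 at 72.5 in the old-labelled list. All these densities depend on window length, which ran from 154 kb for Hlf to 658 kb for Mecom. By number of summits, every window but that of Hlf lay above most genes in each list. Hlf stood at percentiles 31.2, 55.1 and 29.5 in the old ABC-, old- and young-labelled lists.

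**Figure D1:**
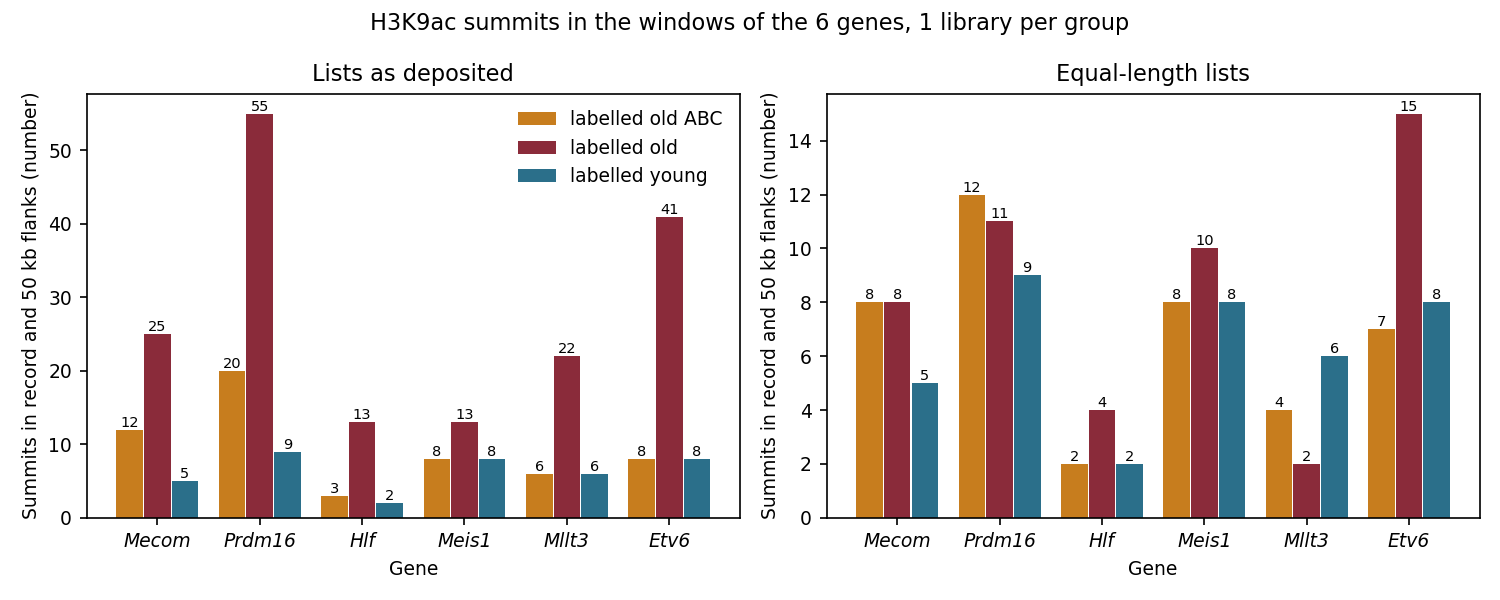
Number of summits in the record and 50 kb flanks of each gene (y axis) in the libraries labelled old ABC, old and young, with lists as deposited on the left and equal-length lists on the right; bars are single libraries and carry their counts. Etv6 leads the equal-length counts of the old-labelled list with 15, against 7 in the old ABC-labelled and 8 in the young-labelled list.

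The strength of a summit was read only as its rank within its own list, given as a percentile with 100 the strongest, because the authors' score grows with read depth, which is unknown. Percentiles of lists of different length show no change between libraries. The best rank of a window summit was 3357 for the old ABC-labelled list, 5670 for the old-labelled and 3117 for the young-labelled. In the top 10 percent of their lists were 4 of 57, 10 of 169 and 1 of 38 window summits. The median percentiles were 50.3, 47.7 and 42.9, near the middle of each list. Summits within 5 kb of an annotated start ranked higher than the rest of the window, with median percentiles of 71.0 (10 summits), 80.7 (20) and 68.2 (11) in the old ABC-, old- and young-labelled lists, against 42.8 (47), 42.4 (149) and 36.2 (27) farther away. Among the summits kept in equal-length lists the medians were 71.0 against 61.2 (old ABC) and 90.2 against 81.7 (old). No such medians over all genes are given, so this is not shown to be particular to these genes.

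**Figure D2:**
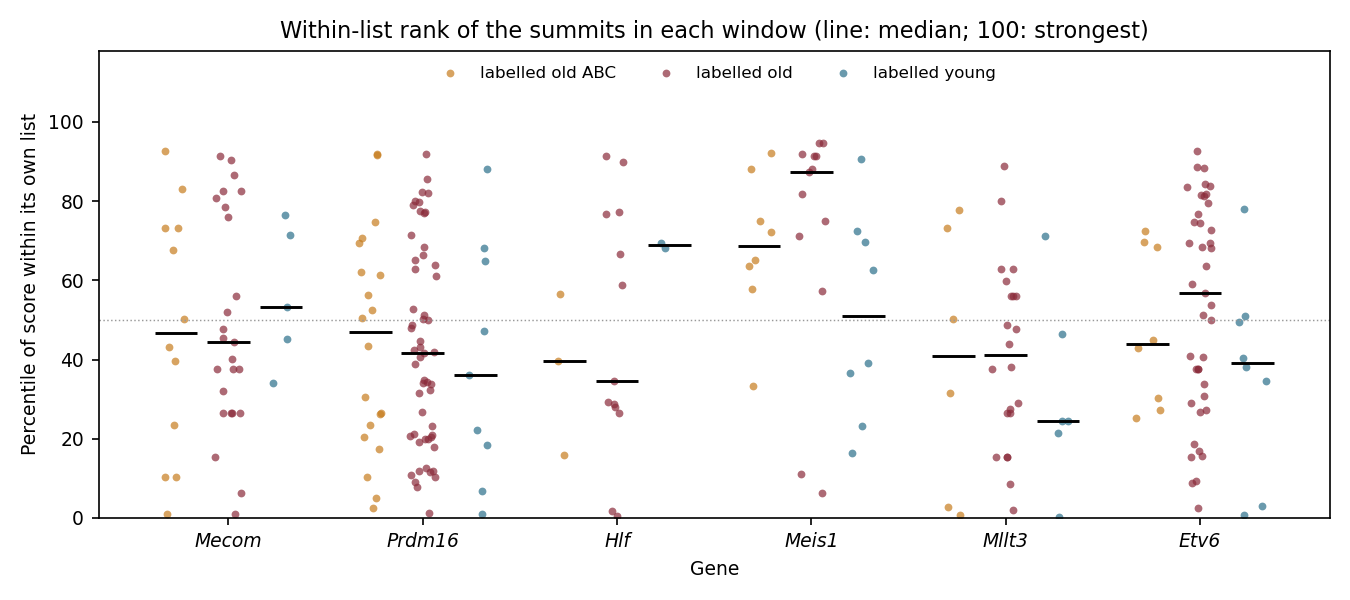
Percentile of the score of each window summit within its own list (y axis, 100 the strongest), by gene and library; each point is a summit and each line the median of a gene in a library. The highest medians are those of Meis1 in the old ABC- and old-labelled lists (68.6 and 87.3) and of the 2 summits of Hlf in the young-labelled list (68.9).

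Meis1, the HOX partner (chromosome 11, 18880428 to 19019651, minus strand), was the only one of the 6 genes with a summit within 100 bp of a start in all 3 libraries. These summits stand in the sequence shown above, and the record itself reaches past this start, to 19019651. They lay 24, 22 and 53 bp upstream of the start in the old ABC-, old- and young-labelled lists, at positions 19018993, 19018991 and 19019022, and at percentiles 75.0, 94.8 and 39.1. Its highest-ranking site in the old ABC- and young-labelled lists lay 8 kb upstream, outside the record and inside no other record of the table, at 19026970, 19026969 and 19026805. There the percentiles were 92.2 in the old ABC-labelled list, 94.7 in the old-labelled list and 90.6 in the young-labelled list, so this site was in the top 10 percent of every list. Just inside the gene the old ABC- and young-labelled lists had summits 36 bp apart (19016242 and 19016206, percentiles 88.1 and 72.4), and the old-labelled list one at 19016747 (percentile 92.0). Further sites of all 3 libraries lay 4.06 kb (19014913, 19014912 and 19014906) and 10.9 kb downstream of the start. All of these lie where the non-coding record Gm16141 (18989652 to 19018330) overlaps Meis1, so they cannot be assigned to Meis1 alone. Past the far end of the record, 142 kb from the start, the 3 lists had summits at 18876568, 18876572 and 18876571, within 4 bp of each other and inside the non-coding record 8430419K02Rik. In all, 5 of the 14 Meis1 sites were found in every library, the largest share among the 6 genes.

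Etv6, the ETS repressor (chromosome 6, 134035700 to 134270158, plus strand), had its strongest summit in each list just inside the gene. It lay 0.433, 0.49 and 0.593 kb downstream of the start in the old ABC-, old- and young-labelled lists (134036133, 134036190 and 134036293), at percentiles 72.4, 92.6 and 78.1. Within 5 kb of the start lay 2 old ABC-labelled, 6 old-labelled and 1 young-labelled summit. Equal-length lists, which hold the 33248 highest-scoring summits of each library, held 2, 5 and 1 of these. One of the old-labelled summits, 472 bp upstream of the start, lay inside the record of the neighbour Gm46977 (134018140 to 134035312). Deeper in the gene, a site at 23.8 kb was found in all 3 libraries (percentiles 44.9, 81.9 and 40.5). The old-labelled list also held a summit at 185 kb, at percentile 88.4 and inside the non-coding record Gm38908, with no counterpart within 500 bp in the other lists.

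Mecom (chromosome 3, 29951296 to 30509759, minus strand) had summits near both of its starts in every library. Near the upstream start they lay 1406, 1493 and 1481 bp downstream in the old ABC-, old- and young-labelled lists (30508353, 30508266 and 30508278), at percentiles 92.6, 91.4 and 76.5, the strongest of the window in each list. No summit lay within 1 kb of that start in any list. At the inner start, 497 kb farther on, they lay 131, 164 and 123 bp downstream (30013073, 30013040 and 30013081), at percentiles 43.2, 90.5 and 53.3. The 3 summits at the inner start thus fell within 41 bp of each other. A second summit behind the upstream start was found in the old ABC- and young-labelled lists, at 2.23 and 2.47 kb. Between the starts, the old ABC- and old-labelled lists shared a summit at the same base, 30161448, 348 kb from the upstream start (percentiles 73.3 and 86.5), with no young-labelled counterpart. The window held 12, 25 and 5 summits. With 1.82, 3.80 and 0.759 summits per 100 kb, Mecom was sparser than most genes (percentiles 31.5, 28.6 and 25.1 of all protein-coding genes). By number of summits, its 658 kb window stood above most genes, at percentiles 93.4, 94.9 and 59.1.

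Prdm16, the relative of Mecom (chromosome 4, 154316122 to 154637360, minus strand), had the most summits, 20, 55 and 9 in its window. Near its start, a summit lay 1599 and 1600 bp downstream in the old ABC- and old-labelled lists (154635274 and 154635273), inside the non-coding record 5930403L14Rik, at percentiles 50.4 and 79.8. The nearest young-labelled summit lay 13692 bp downstream, at a site that all 3 libraries shared. In the old ABC- and young-labelled lists the 2 strongest summits of the window lay outside the record, and the old-labelled list shared both. The one was at 154312154, 154312495 and 154312467 in the old ABC-, old- and young-labelled lists, between the far end of Prdm16 and its neighbour Arhgef16 (154278469 to 154300107), at percentiles 91.6, 92.0 and 88.0. The other, upstream, at −33.6 kb from the start, was at 154670468, 154670470 and 154670469, within 2 bp in all lists, at percentiles 91.8, 82.2 and 68.3. It lay beyond the record of Actrt2, a neighbour at 154666428 to 154667867. Inside the gene, the highest-ranking summit of the old-labelled list lay 117.8 kb from the start (percentile 85.6) and that of the young-labelled list 153 kb from it (percentile 64.9). The neighbours Megf6 and Arhgef16 together held 2, 5 and 0 of the window's summits.

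Hlf, the bZIP factor (chromosome 11, 90336535 to 90390917, minus strand), is the shortest of the 6 and held 3, 13 and 2 summits in its window. A site 2 kb downstream of the start was found in all 3 libraries, at 90388738, 90388916 and 90388734, with percentiles 56.5, 91.5 and 69.5. A second, about 1.1 kb farther in, was found in the old-labelled (90387684, percentile 89.9) and young-labelled (90387648, percentile 68.2) lists and not in the old ABC-labelled list. These 2 were the only young-labelled summits of the window. The old-labelled list also had a summit 43.2 kb into the gene, at percentile 77.2, one at 35.4 kb (percentile 76.8) that the old ABC-labelled list had at 35.8 kb (percentile 15.8), and a weak one 727 bp from the start at percentile 29.2.

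Mllt3, the H3K9ac reader AF9 (chromosome 4, 87769925 to 88033407, minus strand), had no summit near its outer start that all 3 lists shared. The old ABC-labelled list had no summit within 29606 bp of it. The old-labelled list had summits 5 bp downstream (percentile 27.4), 861 bp upstream (43.9) and 1230 bp downstream (80.1), of which only the last reached the equal-length list. The young-labelled list had summits 861 bp upstream (percentile 46.5) and at −1.67 kb (24.4). The old- and young-labelled summits 861 bp upstream were the same base, 88034268. The strongest summit of the window in all 3 lists lay deep in the gene, 210 kb from the outer start, at 87823881, 87823871 and 87823871, with percentiles 77.8, 88.9 and 71.3. It was 17.5 kb upstream of the inner start, where the old-labelled list alone had a summit, 74 bp from that start at percentile 15.4.

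**Figure D3:**
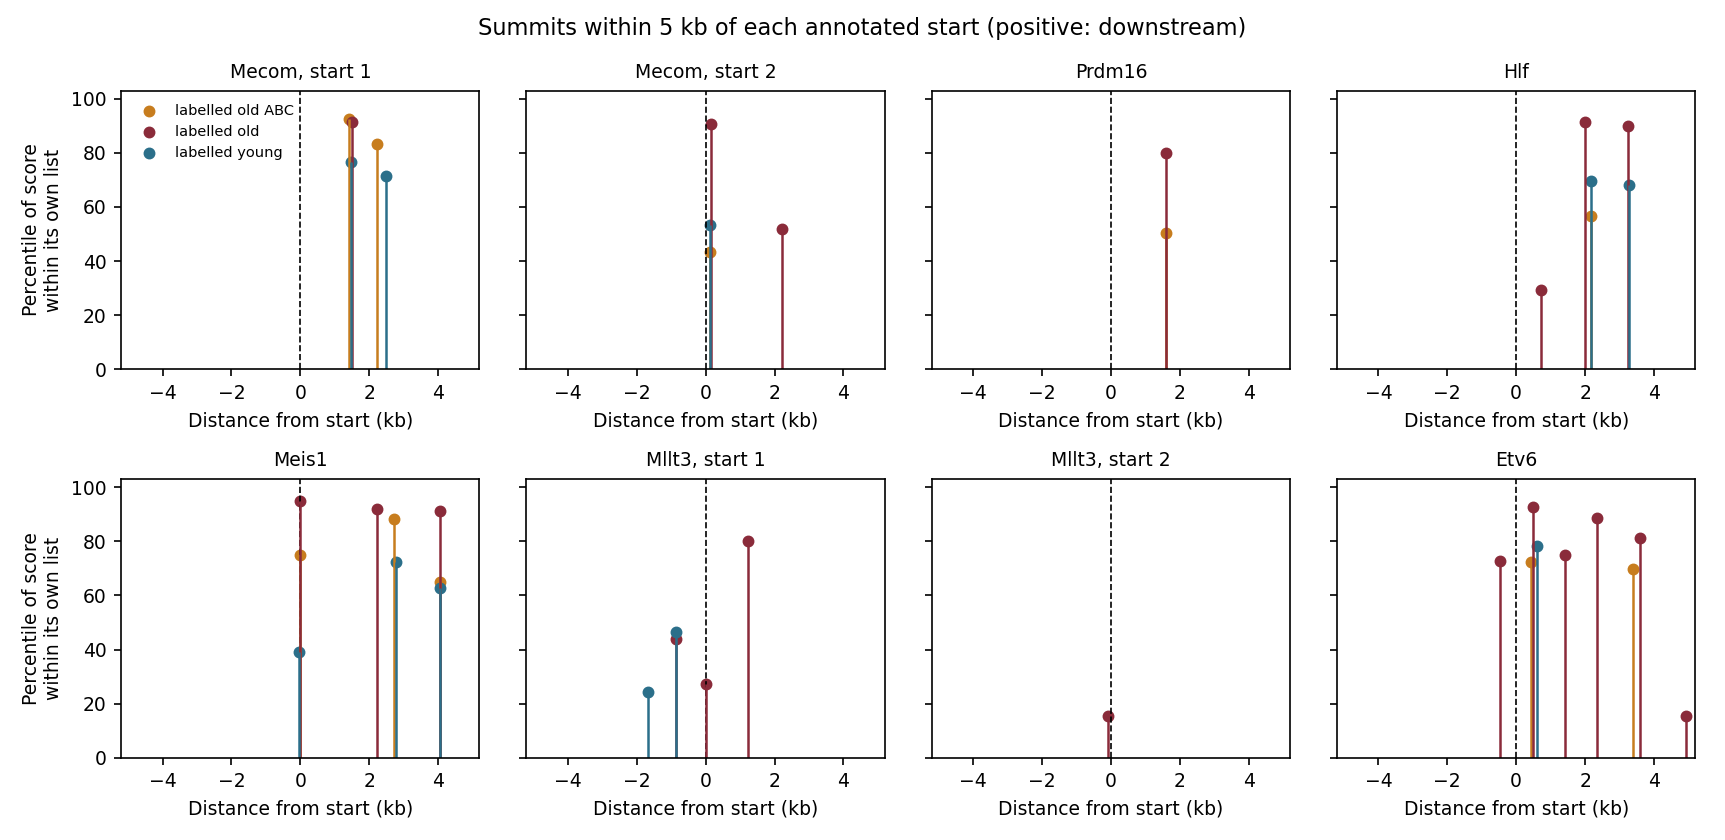
Summits within 5 kb of each of the 8 annotated starts (x axis, kb, positive downstream) against the percentile of their score within their own list (y axis); each stem is a summit of a single library. Summits of all 3 libraries stand at the start of Meis1 and just behind the starts of Etv6 and of Mecom (start 2, the inner), while those of Mecom (start 1) stand 1.4 to 1.5 kb and those of Hlf 2.0 to 2.2 kb downstream.

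Counted against annotated starts, 3 of 6 genes had a summit within 1 kb in the old ABC-labelled list (Mecom, Meis1 and Etv6), 5 in the old-labelled list (these with Hlf and Mllt3) and 4 in the young-labelled list (these with Mllt3). Over the 17492 protein-coding genes of the promoter table the shares were 46.3%, 57.9% and 45.5%. In equal-length lists the counts were 3, 3 and 4, against 43.8%, 49.6% and 45.5% of all genes. Prdm16 had none in any list. Within 5 kb of a start, the gene without a summit was Mllt3 in the old ABC-labelled and Prdm16 in the young-labelled list.

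Summits of the 3 lists were joined into sites where neighbours lay within 500 bp, which gave 186 sites in the 6 windows. In all 3 libraries 18 sites were found, or 9.68%, against 14.3% of the 124201 sites of the whole genome. Of the 18, 15 reached the equal-length lists of all 3, 14 lay inside the records and 6 within 5 kb of an annotated start. By gene they numbered 2 in Mecom, 6 in Prdm16, 1 in Hlf, 5 in Meis1, 1 in Mllt3 and 3 in Etv6. Their summits lay a median of 162.5 bp apart from first to last, with a range of 2 to 455 bp. Sites of the old-labelled list alone made up 114 of the 186, or 61.3%, against 53.5% over the genome. Those of the old ABC-labelled list alone were 14, or 7.53%, against 8.21% over the genome, and those of the young-labelled list alone 4, or 2.15%, against 4.31%. Prdm16 (39) and Etv6 (31) held most of the sites of the old-labelled list alone.

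**Figure D4:**
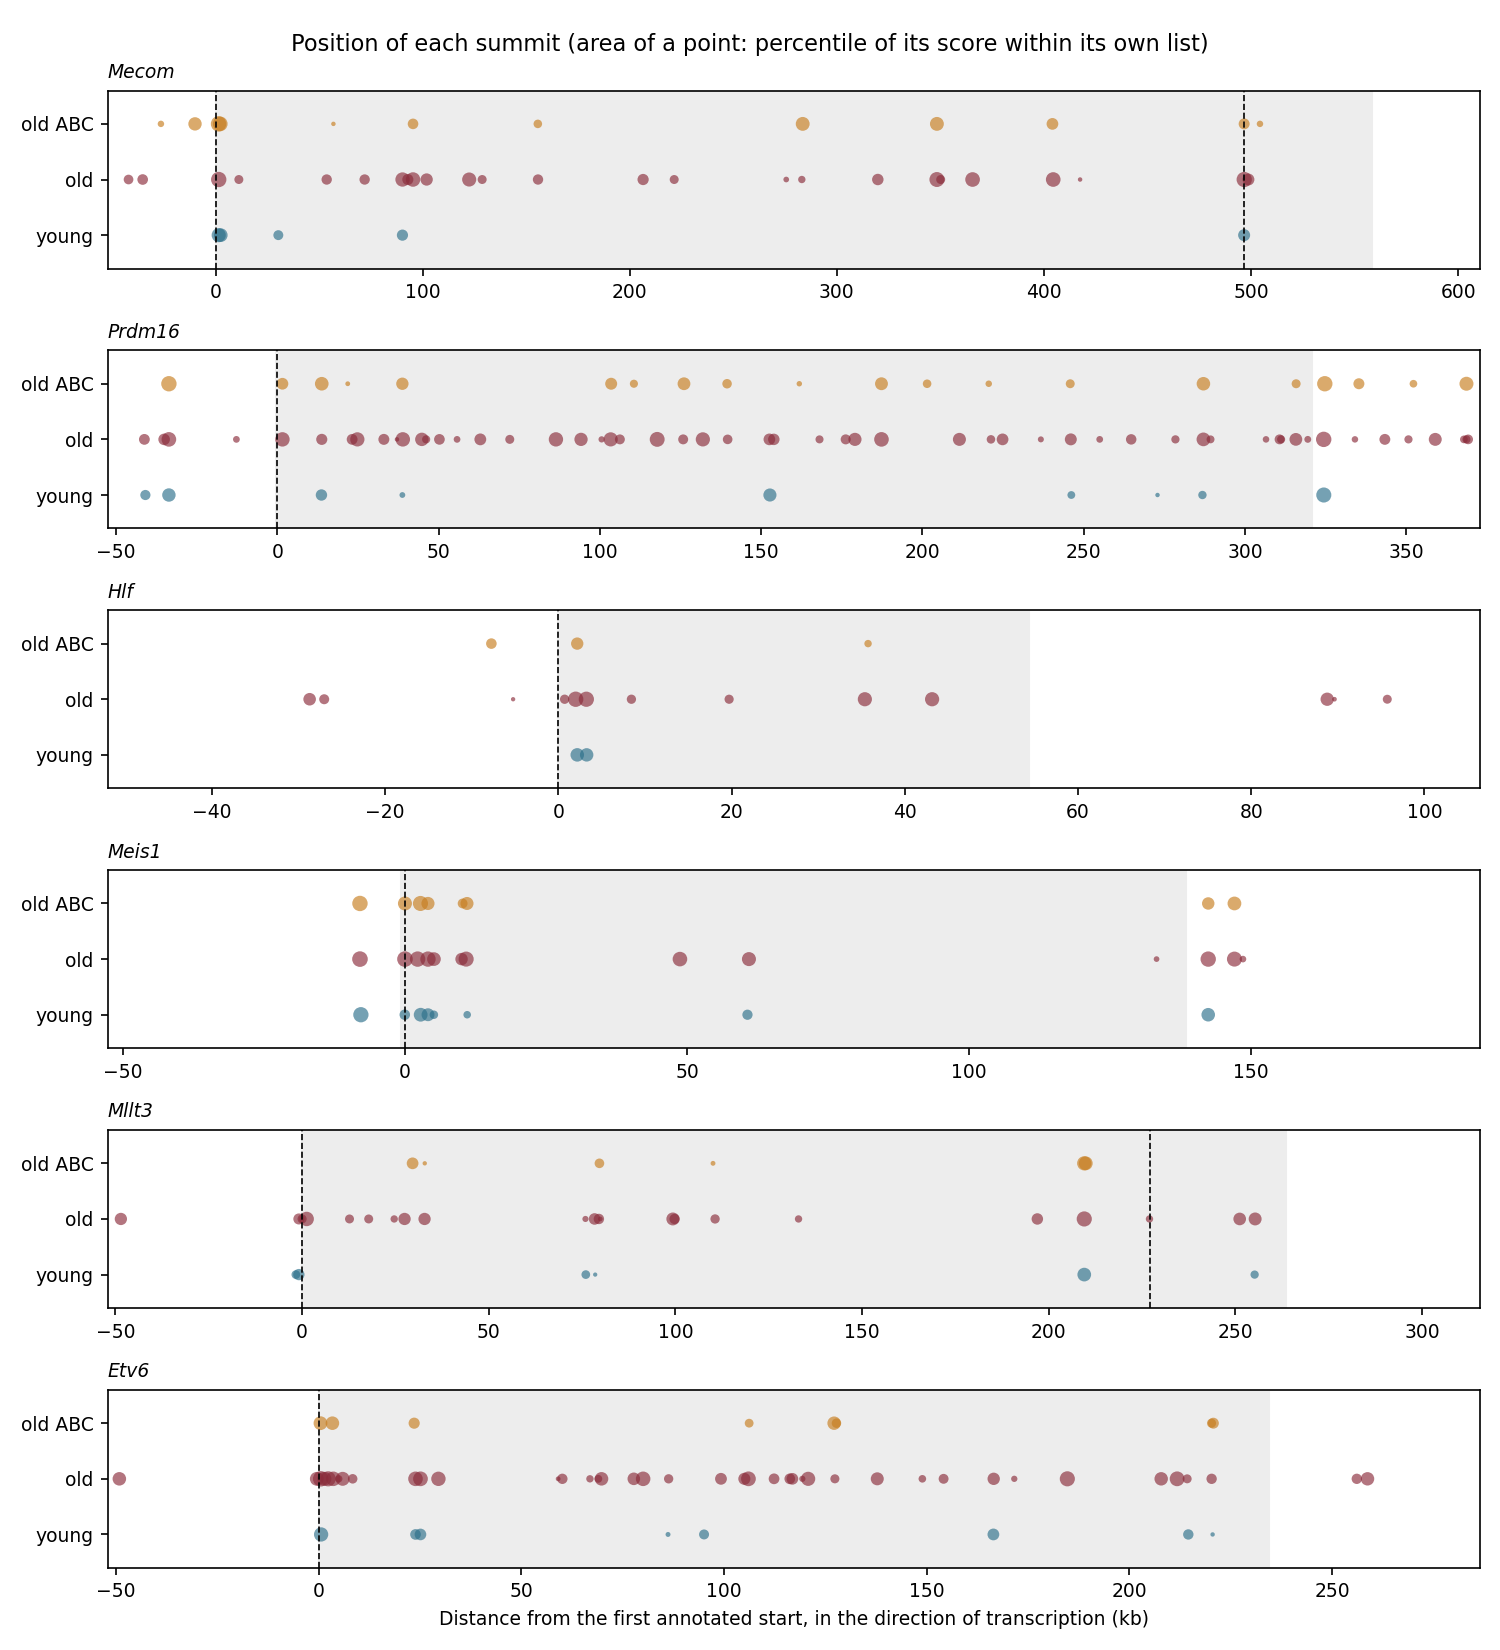
Position of every window summit (x axis, kb from the first annotated start in the direction of transcription) in the libraries labelled old ABC, old and young; grey marks the record, dashed lines the annotated starts, and a larger point a higher percentile within its list. The old-labelled row fills the records of Prdm16 and Etv6, while most Meis1 summits lie within 11 kb of its start in every row.

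By the labels, age was addressed by old against young HSC. The sample names inside the files all begin with oHSC, and under those names this contrast would hold no young library. The library labelled old held 4.45 times as many window summits as the library labelled young (169 against 38, 95% interval 3.11 to 6.50), where the whole list was 3.27 times as long and the median gene window had a ratio of 2.83. By gene the ratio was 6.50 for Hlf (13 against 2), 6.11 for Prdm16 (55 against 9), 5.13 for Etv6 (41 against 8), 5.00 for Mecom (25 against 5), 3.67 for Mllt3 (22 against 6) and 1.63 for Meis1 (13 against 8). Thus 5 of 6 genes had at least 2 times as many old-labelled summits, and so had 79.5% of the 16743 genes with at least 5 summits in both lists together. None of the 6 had at least 2 times fewer, as had 0.0119% of those genes. In equal-length lists the counts were 50 and 38, a ratio of 1.32 with an interval of 0.846 to 2.06 that includes 1. Of the 6 genes, Hlf then had at least 2 times as many old-labelled summits (4 against 2, interval of the ratio 0.287 to 22.1), as had 6.63% of all genes counted. Mllt3 had at least 2 times fewer (2 against 6, 0.0329 to 1.86), as had 7.03%. Etv6 had 15 against 8, a ratio of 1.88 (0.746 to 5.11). Each of these intervals includes 1. With 100 kb flanks in place of 50 kb, Hlf was no longer 2 times apart (6 against 5, ratio 1.2), Mecom was (12 against 6) and Mllt3 still was (4 against 8). Of the old-labelled equal-length window summits 40.0% had a young-labelled summit within 500 bp, against 55.1% over the whole list. Of the young-labelled ones 52.6% had an old-labelled summit so near, against 55.8% over the list.

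Old HSC ABC was then set against old HSC, both from old mice. The library labelled old ABC held 0.337 times as many window summits as the library labelled old (57 against 169, 0.245 to 0.458), where the ratio of list lengths was 0.417 and the median gene window had 0.467. At least 2 times fewer were counted for 5 of 6 genes, all but Meis1 (8 against 13), and for 61.0% of all genes counted. At least 2 times more were counted for none of the 6 and for 0.160% of all genes. In equal-length lists the counts were 41 and 50, a ratio of 0.820 (0.529 to 1.26). At least 2 times fewer were then counted for Etv6 (7 against 15, ratio 0.467, 0.161 to 1.22) and Hlf (2 against 4, ratio 0.500, 0.0452 to 3.49), and for 7.33% of all genes. At least 2 times more were counted for Mllt3 (4 against 2, ratio 2.00, 0.287 to 22.1), and for 6.41% of all genes. Each of these 3 intervals includes 1. With 100 kb flanks, Etv6 (11 against 20, ratio 0.550) and Hlf (4 against 6, ratio 0.667) were no longer 2 times apart, while Mllt3 (8 against 4) still was. With 50 kb flanks, Mecom (8 against 8), Prdm16 (12 against 11) and Meis1 (8 against 10) lay close together. Of the old ABC-labelled equal-length window summits 58.5% had an old-labelled summit within 500 bp, against 56.1% over the whole list. Of the old-labelled ones 46.0% had an old ABC-labelled summit so near, against 55.5% over the list.

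The comparison of old HSC ABC with young HSC used lists of more similar length. The counts were 57 and 38, a ratio of 1.5 (0.978 to 2.32) beside a list ratio of 1.37. Mecom (12 against 5) and Prdm16 (20 against 9) had at least 2 times as many old ABC-labelled summits, as had 18.6% of all genes counted. None had at least 2 times fewer (1.80% of all genes): Meis1 (8 and 8), Mllt3 (6 and 6) and Etv6 (8 and 8) had equal numbers and Hlf had 3 against 2. In equal-length lists, with 41 and 38 summits, none of the 6 genes differed by 2 times in either direction, where 6.64% of all genes were higher and 7.76% lower in the old ABC-labelled list. Hlf, with 2 and 2, was below the 5 summits needed. With 100 kb flanks, Mecom was 2 times apart (13 against 6, ratio 2.17). The 3 comparisons share their libraries and are not independent.

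Other genes whose equal-length window counts were most like those of a member were found by Euclidean distance of log2(count + 1) over the 3 libraries. The counts of Hlf (2, 4 and 2 in the old ABC-, old- and young-labelled lists) were matched exactly by 50 genes, those of Mecom by 15, of Meis1 by 10, of Mllt3 by 7 and of Prdm16 by 2, Irak2 and Srl. Etv6 (7, 15 and 8) had no exact match, and Acer1 (7, 14 and 8) was nearest, at a distance of 0.0931.

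Partners and relatives of the 6 factors, a list of 44 genes, had a summit within 1 kb of a record end for 28 genes of the old ABC-labelled list, 33 of the old-labelled and 28 of the young-labelled, against 43.6%, 56.9% and 41.9% of all protein-coding genes. In equal-length lists 24, 29 and 28 did (40.5%, 45.5% and 41.9% of all genes). Tef, a bZIP relative of Hlf on chromosome 15 (81802673 to 81826863), had an end summit in the old ABC-labelled (81802830) and old-labelled (81802779) equal-length lists, and its nearest young-labelled summit lay 7658 bp away. Prdm11, of the PR domain family, was marked at an end by the old-labelled equal-length list (93045801), with the nearest young-labelled summit 23453 bp away. Etv5, an ETS relative of Etv6, was marked in the old- and young-labelled equal-length lists; its old ABC-labelled summit, 124 bp from an end, was below that list's limit. Of 44 other genes known to maintain HSCs, 20, 33 and 19 had an end summit, and 15, 26 and 19 in equal-length lists. Set against the young-labelled equal-length list, the old-labelled list alone marked 3 of the partners and 10 of the other genes (6.90% of all genes), and the young-labelled list alone 2 and 3 (3.28%). Set against the old-labelled list, the old ABC-labelled list alone marked 2 and 2 (3.20%), and the old-labelled list alone 7 and 13 (8.22%). Set against the young-labelled list, the old ABC-labelled list alone marked 3 and 4 (4.70%), and the young-labelled list alone 7 and 8 (6.09%). Among the genes marked by the old-labelled list, the repressor genes Gfi1b and Zbtb16 and the chromatin protein gene Hmgb3 lacked a young-labelled counterpart near either end, the nearest lying 10817, 18566 and 40409 bp away. For the forkhead factor gene Foxo1 and the zinc finger factor gene Egr1 the nearest old ABC-labelled summits lay 6634 and 20794 bp from an end marked in the old-labelled list. Nkx2-3, a homeobox gene, was marked in the old ABC-labelled equal-length list (43612881 on chromosome 19), with the nearest young-labelled summit 32692 bp away. By record ends, as in these lists, the 6 genes themselves counted 2, 4 and 3 as deposited and 2, 2 and 3 in equal-length lists.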

How the data were processed

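H3K9ac CUT&Tag was done on sorted mouse HSCs, with 1 library in each of 3 groups, taken from the labels. The build (mm10) and the tools BWA, Picard, MACS2 and edgeR come from the submitters' processing notes; no source used here gives what each did, with which version, settings or control. Each file deposited by the authors lists summits of 1 bp from 1 sample with a score, taken to be a −log10 q-value, as MACS2 writes it, since no score is below 1.30, the value for a q of 0.05. A list grows with read depth, which is unknown, so scores only ranked summits within a list.

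Summits were counted with pandas 2.3.3 and scipy 1.17.1 in the records of the RefSeq table of GRCm38.p6 (mm10 coordinates; protein-coding, chromosomes 1 to 19, X and Y) plus 50 kb, chained into sites within 500 bp, and set beside all genes. Genome density used the length up to the last record or summit of each chromosome. Equal-length lists were the 33248 highest-scoring summits. A gene was counted as differing at 2 times or more, with at least 5 summits over the 2 lists together. Starts, strands and sequences came from the RefSeq promoter table; motif matches were sought in the 250 bases before a start. Counting was tested on simulated data. No region filter was applied. Counts and sums over the B cell marker list are not reported here. The 6 genes, the gene lists and the rules were chosen with earlier results of these data known. Named summits were the 3 strongest per gene and list, those nearest an end or annotated start, and sites of all 3 libraries; those at starts, the runs near starts and the old-labelled summits deep in Etv6 and Hlf were partly chosen after their values were seen. Alternatives were other score filters, windows, sharing and end distances, merging and folds; counting by annotated starts and leaving out neighbouring coding records were added after seeing the data.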

Additional observations from a re-analysis of the deposited data

How the results depend on the processing

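No paired analysis was possible because each group has 1 library, and for the same reason no library could be left out. Filters and windows changed counts by construction. Over the old ABC-, old- and young-labelled lists, scores of at least 5 left 20, 62 and 13 window summits and scores of at least 10 left 5, 18 and 2. The shares of the list at a score of at least 10 were 0.0899%, 0.108% and 0.0329%. At a score of at least 5 the median percentiles, ranked anew within the filtered lists, were 25.7 (old ABC) and 33.5 (young). They are thus not on the scale of the percentiles in the whole lists. With 100 kb flanks the old ABC-labelled list held 86 window summits, and the shares were 0.189% (old ABC) and 0.198% (old); in records alone the old-labelled share was 0.128%. In equal-length lists the old-labelled windows held 50 summits.

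The ratio of old to young window summits was 1.32 in equal-length lists and 9.0 at a score of at least 10; that of old ABC to old was 0.820 in equal-length lists, and that of old ABC to young 2.50 at a score of at least 10. Mllt3 reversed with list length: old over young was 3.67 and old ABC over old 0.273 with lists as deposited, where the lists differ in length. Genes differing by 2 times in equal-length lists numbered 2 (old against young), 3 (old ABC against old) and 0 (old ABC against young). With lists as deposited they numbered 5, 5 and 2. At 1.5 times they numbered 4 for old against young and 2 for old ABC against young, at 3 times 1 for old against young and 0 for old ABC against old, and with 100 kb flanks 1 for old ABC against old (Mllt3; Etv6 and Hlf were lost) and 1 for old ABC against young (Mecom). With 100 kb flanks old against young again gave 2, but Mecom and Mllt3 in place of Hlf and Mllt3. Sites of all 3 libraries numbered 7 and 2 at scores of at least 5 and 10, and 29 with 100 kb flanks. Genes with an end summit numbered 2 in the old-labelled list in equal-length lists and at either score filter, 1 in the young-labelled list at a score of at least 5, and 0 in the old ABC- and young-labelled lists at a score of at least 10. With ends taken as 500 bp they numbered 1, 2 and 0 in the old ABC-, old- and young-labelled lists, and within 5 kb 5 (old ABC) and 6 (young). The cause of a change other than list length, filter or window was not tested. The other 91 recomputed values stayed near the value reported. For counts of summits, sites and genes this meant within 1.5 times, and for shares and ratios within the counting interval. For median percentiles it meant within an interval of the median. For genes differing between lists only their number was compared, not which genes they were. Read depth, which is unknown, limits what the absence of a summit shows.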
